A study of Mus musculus with 2 samples.

Results

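The levels of 10 genes of cytokine receptor signalling were followed in mouse liver. They were chosen by name among the 32285 genes counted. The 7 receptor chains Il6ra, Lifr, Il6st, Osmr, Il31ra, Il1r1 and Il1rap, the kinase gene Jak2 and the transcription factor gene Stat3 were set against the feedback inhibitor Socs3. The data are 2 libraries, each from the liver of 1 mouse that carried no tumour and had floxed alleles of Glul, the gene of glutamine synthetase (Glul f/f). The GS-KO mouse received AAV8-Cre and the control mouse AAV8-GFP. Both were 11 weeks old and were sampled 2 weeks after the virus. The livers were digested by perfusion (collagenase II, 0.3 mg/mL), and hepatocytes and purified non-parenchymal cells were sequenced together on a 10x Genomics 5-prime platform. AAV8 enters mouse hepatocytes efficiently. The sources used here do not give the promoter that drives Cre, and the labels name both single cells and nuclei as input.

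Cytokines of the IL-6 family bind chains such as Il6ra, Lifr and Osmr, which signal through the shared chain Il6st, while Il31ra pairs with Osmr. JAK kinases bound to the chains phosphorylate STAT3, which enters the nucleus and, in hepatocytes, induces acute phase genes together with Socs3. The SOCS3 protein binds the shared chain and the kinases and ends the signal. Il1r1 and Il1rap form the IL-1 receptor, which signals through MyD88 and IRAK kinases to NF-kB and acts with IL-6 on the acute phase genes of the liver.

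STAT dimers bind the palindrome TTCNNNGAA, where N is any base. This motif reads the same on both strands and was the only motif searched, so it overlapped no other. Of the 12 promoter entries that matched the 10 genes, 2 held it in the 250 bases before the start site, against 7.02% of all 32851 promoters of that length. The bases around both matches are shown because they belong to the inhibitor that the chains are set against and to the 1 receptor chain with a match. They are RefSeq sequence of build GRCm38.p6, both on the minus strand, at chr11:117969476-117969556 for Socs3 and chr13:112580809-112580889 for Il31ra. Capitals mark the motif, whose first base lies 154 bases before the RefSeq start of Socs3 at chr11:117969366 and 191 bases before that of Il31ra at chr13:112580662. Both starts lie inside the GENCODE gene spans given further on, because that annotation also holds transcripts of both genes that start further upstream.
Socs3: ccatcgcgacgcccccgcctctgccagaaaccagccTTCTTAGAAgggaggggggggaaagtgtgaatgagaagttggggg
Il31ra: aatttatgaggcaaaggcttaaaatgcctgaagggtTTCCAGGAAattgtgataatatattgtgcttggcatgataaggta
A match describes the letters only and is no evidence of binding, and a window without one says nothing of the factor.

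Each droplet carries a barcode, and each captured RNA molecule is counted once as a UMI (unique molecular identifier). Raw UMIs were summed over small barcodes (at least 200 and under 400 UMIs), middle barcodes (at least 500 and under 1000) and large barcodes (at least 1000). Sums are given as CPM, the count per 1000000 UMIs of the same barcodes. The GS-KO library had 143687 small, 10037 middle and 1834 large barcodes with 43036904, 6699943 and 2443469 UMIs, and the control library 116552, 11989 and 1703 barcodes with 38070357, 7923353 and 2182260 UMIs. Malat1, a nuclear RNA, stood at 37630 CPM in large GS-KO barcodes and 19613 CPM in large control barcodes, and the median mitochondrial share was 2.15% in large GS-KO barcodes and 3.18% in large control barcodes. Glul itself stood at 9.78, 27.8 and 31.5 CPM in small, middle and large GS-KO barcodes, against 113, 118 and 124 CPM in the control ones. The sources used here do not give the deleted stretch of Glul, so a 5-prime count may lie outside it. The 2 matrices shared 8108 barcode sequences, 1 of them with at least 1000 UMIs in both. With 1 mouse and 1 library in each group, the groups could not be tested against each other. Every interval below is an exact 95% interval for counting error only, which does not cover differences between mice, digestions or library preparations.

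The ligand-binding chain for IL-6, Il6ra (chr3:89864059-89913196 in the GENCODE M21 annotation of mm10), was lower in the GS-KO library in small, middle and large barcodes. Small barcodes held 20.9 CPM in the GS-KO library (898 UMIs) and 35.3 CPM in the control library (1344 UMIs). Middle barcodes held 52.4 CPM in the GS-KO library and 85.6 CPM in the control library, and large barcodes 71.2 CPM (174 UMIs) in the GS-KO library and 195 CPM (426 UMIs) in the control library. The intervals of the levels did not overlap at any of these 3 sizes. In the barcodes of at least 400 and under 500 UMIs, which lie between the small and the middle ones, they did overlap: Il6ra stood there at 33.9 CPM (28.3 to 40.2) in the GS-KO library and 37.3 CPM (34.0 to 40.9) in the control library, a log2 ratio of -0.14. The log2 ratios, GS-KO over control, were -0.76 (-0.88 to -0.64) in small, -0.71 (-0.90 to -0.52) in middle and -1.45 (-1.72 to -1.20) in large barcodes. Because barcodes were summed, fewer cells of a type and less RNA per cell cannot be told apart.

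The LIF receptor chain Lifr (chr15:7090614-7197489) showed the same order of the libraries with more UMIs behind it. It stood at 131 CPM in small GS-KO barcodes (5634 UMIs) and 244 CPM in small control barcodes (9298 UMIs). In middle barcodes it stood at 203 CPM in the GS-KO library and 375 CPM in the control library, and in large barcodes at 313 CPM (764 UMIs) in the GS-KO library and 772 CPM (1685 UMIs) in the control library. Large GS-KO barcodes thus lay between the small and the middle control barcodes. The log2 ratios were -0.90 (-0.95 to -0.85), -0.88 (-0.98 to -0.79) and -1.30 (-1.43 to -1.18) from small to large barcodes. Of all genes compared in large barcodes, 2.33% had a lower ratio than Il6ra and 2.99% a lower one than Lifr. For Il6ra this share was 7.30% in small and 7.58% in middle barcodes, and for Lifr 5.25% and 4.83%.

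The shared chain Il6st (chr13:112464070-112510086), through which Il6ra and Lifr signal, did not follow them. Small barcodes held 54.2 CPM in the GS-KO library (2334 UMIs) and 58.9 CPM in the control library (2243 UMIs), a log2 ratio of -0.12 (-0.20 to -0.04). Middle barcodes held 86.9 CPM in the GS-KO library and 75.1 CPM in the control library, a log2 ratio of 0.21 (0.04 to 0.38). Large barcodes held 108 CPM in the GS-KO library (265 UMIs) and 65.5 CPM in the control library (143 UMIs), a log2 ratio of 0.72 (0.43 to 1.03). The order of the libraries was thus opposite in small and large barcodes.

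Set against the shared chain, the 2 ligand-specific chains were lower by a factor that does not depend on the scaling to CPM. In large barcodes there were 0.657 Il6ra UMIs per Il6st UMI in the GS-KO library and 2.98 in the control library, a log2 odds ratio of -2.18 (-2.58 to -1.78). For Lifr there were 2.88 UMIs per Il6st UMI in the GS-KO library and 11.8 in the control library, a log2 odds ratio of -2.03 (-2.36 to -1.71). In small barcodes the log2 odds ratios were -0.64 (-0.79 to -0.49) for Il6ra and -0.78 (-0.88 to -0.68) for Lifr.

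Osmr (chr15:6813577-6874969), the oncostatin M receptor chain, was close to the limit of detection. Small barcodes held 69 UMIs, or 1.60 CPM, in the GS-KO library and 29 UMIs, or 0.762 CPM, in the control library, a log2 ratio of 1.06 (0.43 to 1.75). Middle barcodes held 16 UMIs in the GS-KO library and 14 in the control library, and large barcodes 4 in the GS-KO library and 1 in the control library. A difference was not detectable at this depth in middle barcodes, where the interval ran from -0.69 to 1.58.

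**Figure D1:**
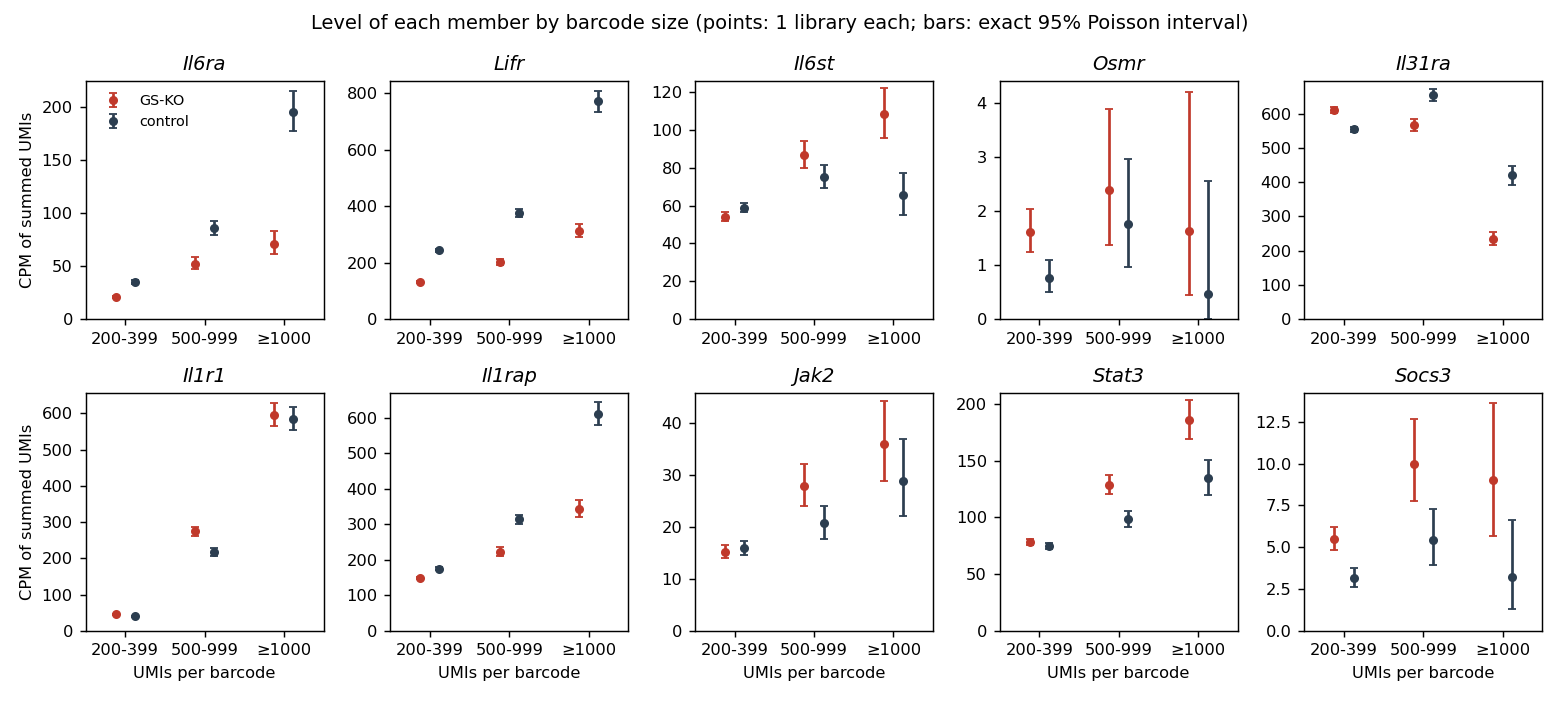
Level of each gene (CPM of summed UMIs, linear axis from 0) in small, middle and large barcodes of the GS-KO and control libraries, 1 library each, with exact 95% Poisson intervals. Il6ra and Lifr are lower in the GS-KO library at all 3 sizes (71.2 against 195 CPM and 313 against 772 CPM in large barcodes), Il1r1 lies near 590 CPM in large barcodes of both libraries, and Socs3 is at 9.0 against 3.21 CPM with overlapping intervals.

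Il31ra (chr13:112519898-112594360), the ligand-binding chain for IL-31, is given apart from the other chains because its UMIs were distributed unlike theirs. Small barcodes held 611 CPM in the GS-KO library (26285 UMIs) and 555 CPM in the control library (21122 UMIs), a log2 ratio of 0.14 (0.11 to 0.16). In barcodes of at least 400 and under 500 UMIs the log2 ratio was 0.37. Middle barcodes held 566 CPM in the GS-KO library and 655 CPM in the control library, a log2 ratio of -0.21 (-0.27 to -0.15). Large barcodes held 235 CPM in the GS-KO library (574 UMIs) and 420 CPM in the control library (916 UMIs), a log2 ratio of -0.84 (-0.99 to -0.69). This value was larger in size under 3 other settings: -1.57 with free RNA taken off, -1.43 in barcodes of at least 1500 UMIs and -1.08 in those of at least 2000 UMIs. In large barcodes with 2 to 4% of their UMIs from Malat1 it was smaller in size, at -0.13 (-0.38 to 0.12). With all barcodes of a matrix summed it was reversed, at 0.045. Il31ra was the 1 gene of the 10 that was past 2-fold lower in large than in small barcodes of the GS-KO library, at a log2 ratio of -1.38 (-1.5 to -1.26), and it was lower by -0.40 (-0.50 to -0.31) in the control library.

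Its UMIs were clumped. The richest large barcode held 28 of the 574 Il31ra UMIs in the GS-KO library and 48 of the 916 in the control library, whereas no large barcode of either library held over 9 UMIs of any other chain. Small barcodes with at least 5 Il31ra UMIs numbered 451 in the GS-KO library and 232 in the control library. They were 0.314% of small GS-KO barcodes and 0.199% of small control barcodes, and held 12.7% of Il31ra UMIs in the GS-KO library and 7.48% in the control library. Relative to the other small barcodes, these barcodes had 22.8-fold the level of Camk1d in the GS-KO library and 18.0-fold in the control library. Lars2 stood at 6.68-fold in the GS-KO library and 5.65-fold in the control library. Lifr, by contrast, stood at 0.93-fold in the GS-KO library and 0.97-fold in the control library. These 2 companion genes were chosen after their values were seen, and whether the clumped UMIs come from Il31ra mRNA was not tested. Sums of the receptor chains are therefore given with and without Il31ra.

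The IL-1 receptor chain Il1r1 (chr1:40225080-40317257), which binds the ligand, stood close together in large barcodes of both libraries. They held 596 CPM in the GS-KO library (1457 UMIs) and 586 CPM in the control library (1278 UMIs), a log2 ratio of 0.03 (-0.08 to 0.14). Small barcodes held 45.2 CPM in the GS-KO library and 40.1 CPM in the control library, a log2 ratio of 0.17 (0.07 to 0.27). In barcodes of at least 400 and under 500 UMIs Il1r1 was past 2-fold higher, at 99.5 CPM in the GS-KO library and 48.7 CPM in the control library, a log2 ratio of 1.03. Middle barcodes held 275 CPM in the GS-KO library and 218 CPM in the control library, a log2 ratio of 0.33 (0.24 to 0.43). The accessory chain Il1rap (chr16:26581704-26730117), which Il1r1 needs to signal, was lower in the GS-KO library at all 3 sizes. Small barcodes held 149 CPM in the GS-KO library and 175 CPM in the control library, and middle barcodes 223 CPM in the GS-KO library and 314 CPM in the control library. Large barcodes held 344 CPM in the GS-KO library (841 UMIs) and 613 CPM in the control library (1337 UMIs). The log2 ratios were -0.24 (-0.29 to -0.19), -0.49 (-0.58 to -0.40) and -0.83 (-0.96 to -0.71) from small to large barcodes. In large barcodes there were 1.73 Il1r1 UMIs per Il1rap UMI in the GS-KO library and 0.956 in the control library, a log2 odds ratio of 0.86 (0.69 to 1.03).

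Downstream of the chains, the kinase gene Jak2 (chr19:29251828-29313080) and Stat3 (chr11:100885098-100939540) lay higher in middle GS-KO barcodes. Jak2 stood at 15.3 CPM in small GS-KO barcodes and 15.9 CPM in small control barcodes, at 27.9 CPM in middle GS-KO barcodes and 20.7 CPM in middle control barcodes, and at 36 CPM in large GS-KO barcodes (88 UMIs) and 28.9 CPM in large control barcodes (63 UMIs). Its log2 ratios were -0.06 (-0.22 to 0.10), 0.43 (0.12 to 0.74) and 0.32 (-0.16 to 0.81), so only the middle interval excluded 0. Stat3 stood at 78.2 CPM in small GS-KO barcodes and 75.0 CPM in small control barcodes, at 129 CPM in middle GS-KO barcodes and 98.3 CPM in middle control barcodes, and at 185 CPM in large GS-KO barcodes (453 UMIs) and 134 CPM in large control barcodes (293 UMIs). Its log2 ratios were 0.06 (-0.01 to 0.13), 0.39 (0.25 to 0.53) and 0.46 (0.25 to 0.68), and 0.33 in barcodes of at least 400 and under 500 UMIs. The ratio of Stat3 to Jak2 UMIs was 5.15 in large GS-KO barcodes and 4.65 in large control barcodes, and the interval of their log2 odds ratio held 0 (-0.39 to 0.68). Stat3 overlaps Stat5a on the other strand in the annotation, and the sources used here do not state how counting handled strand. Stat5a held 85 UMIs in large GS-KO barcodes and 17 in large control barcodes.

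Socs3 (chr11:117966079-117970047), the feedback inhibitor and a STAT3 target, was higher in the GS-KO library at all 3 sizes by point estimate. Small barcodes held 236 UMIs, or 5.48 CPM, in the GS-KO library and 120 UMIs, or 3.15 CPM, in the control library. Middle barcodes held 67 UMIs, or 10.0 CPM, in the GS-KO library and 43 UMIs, or 5.43 CPM, in the control library. Large barcodes held 22 UMIs, or 9.0 CPM, in the GS-KO library and 7 UMIs, or 3.21 CPM, in the control library. The log2 ratios were 0.80 (0.48 to 1.13), 0.88 (0.31 to 1.47) and 1.42 (0.21 to 2.96) from small to large. The Poisson intervals of the 2 levels were apart in small and middle barcodes and overlapped in large ones. Of all genes compared, 16.4% in small, 18.2% in middle and 7.23% in large barcodes had a higher ratio than Socs3. Each Socs3 UMI of a large barcode lay in a barcode of its own, 22 in the GS-KO library and 7 in the control library. In barcodes of at least 1500 UMIs the log2 ratio was 0.10 (5 UMIs in the GS-KO library and 3 in the control library).

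In small, middle and large barcodes the summed receptor chains were lower in the GS-KO library and Socs3 was higher. In barcodes of at least 400 and under 500 UMIs both were higher, at log2 ratios of 0.14 for the chain sum and 1.11 for Socs3. Malat1 stood there at 6075 CPM in the GS-KO library and 2212 CPM in the control library, and its part was not tested. The 7 chains together stood at 1012 CPM in small GS-KO barcodes and 1109 CPM in small control barcodes, and at 1669 CPM in large GS-KO barcodes and 2651 CPM in large control barcodes. Their log2 ratios were -0.13 (-0.15 to -0.11), -0.29 (-0.33 to -0.25) and -0.67 (-0.73 to -0.61) from small to large barcodes. Without Il31ra they were -0.47 (-0.50 to -0.44), -0.34 (-0.39 to -0.29) and -0.64 (-0.70 to -0.57). Per 1000 UMIs of the 7 chains, small barcodes held 5.42 Socs3 UMIs in the GS-KO library and 2.84 in the control library, an odds ratio of 1.91 (1.52 to 2.40). Middle barcodes held 7.10 in the GS-KO library and 3.15 in the control library, an odds ratio of 2.25 (1.51 to 3.39). Large barcodes held 5.39 in the GS-KO library and 1.21 in the control library, an odds ratio of 4.46 (1.84 to 12.4). All 3 intervals excluded 1, and without Il31ra the odds ratios were 2.40, 2.34 and 4.37. Against Il6st alone, the odds ratio in large barcodes was 1.69 with an interval from 0.678 to 4.81, which holds 1. Against Stat3, the log2 odds ratio of Socs3 was 0.74 (0.41 to 1.08) in small barcodes. It was 0.49 (-0.10 to 1.10) in middle and 1.02 (-0.28 to 2.51) in large barcodes, where both intervals held 0.

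**Figure D2:**
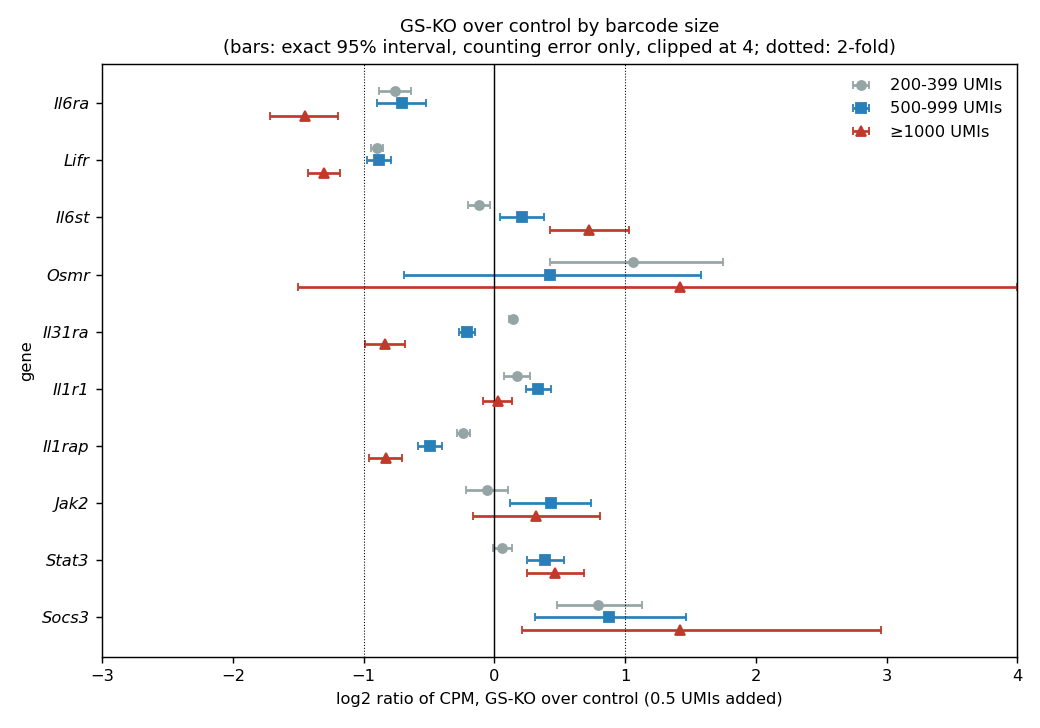
Log2 ratio of CPM, GS-KO over control, for the 10 genes in small, middle and large barcodes, with exact 95% intervals for counting error and dotted lines at 2-fold. Il6ra (-1.45) and Lifr (-1.30) in large barcodes lie left of the 2-fold line, Socs3 lies right of 0 at all 3 sizes, and Il6st crosses from -0.12 in small to 0.72 in large barcodes.

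Counted at a threshold of 2-fold, without a test, 1 of the 10 genes was higher in small GS-KO barcodes (Osmr), beside 13.2% of 13688 genes, and 0 were lower, beside 4.25%, so that 1 of 10 was past 2-fold in either direction, beside 17.5%. In middle barcodes 0 of 10 were past 2-fold in either direction, beside 19.3% of 12349 genes (15.6% higher and 3.7% lower). In large barcodes, where Osmr had under 20 UMIs and was not counted, 1 of 9 was higher (Socs3), beside 12.8% of 10192 genes, and 2 of 9 were lower (Il6ra and Lifr), beside 5.6%. Together 3 of 9 were past 2-fold, beside 18.4%. The share of the 9 that was higher was near the background. The median log2 ratio of the genes counted was 0.00, 0.27 and 0.03 from small to large barcodes, beside -0.01, 0.15 and 0.04 over all genes.

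Barcode size itself separated the genes within each library. Between large and small barcodes, 7 of 10 genes were past 2-fold higher in large GS-KO barcodes, beside 41.1% of 13208 genes, and 1 of 10 was lower, beside 13.2%. In the control library 4 of 10 were higher in large barcodes (Il6ra, Lifr, Il1r1 and Il1rap), beside 36.7% of 12330 genes, and 0 were lower, beside 11.5%. Il1r1 had the largest ratio of the 10, 13.2-fold in the GS-KO library and 14.6-fold in the control library. Malat1 stood at 27.6-fold in the GS-KO library and 11.5-fold in the control library, and the nuclear RNA Neat1 at 30.5-fold in the GS-KO library and 42.1-fold in the control library. Il6st was 2.00-fold higher in large barcodes of the GS-KO library, whereas in the control library its log2 ratio of 0.16 had an interval holding 0 (-0.10 to 0.40). Il6ra was 3.42-fold higher in large barcodes of the GS-KO library and 5.53-fold in the control library. Lifr was 2.39-fold higher in the GS-KO library and 3.16-fold in the control library. For Socs3 the log2 ratio was 0.74 (0.01 to 1.35) in the GS-KO library and 0.12 (-1.32 to 1.11) in the control library.

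**Figure D3:**
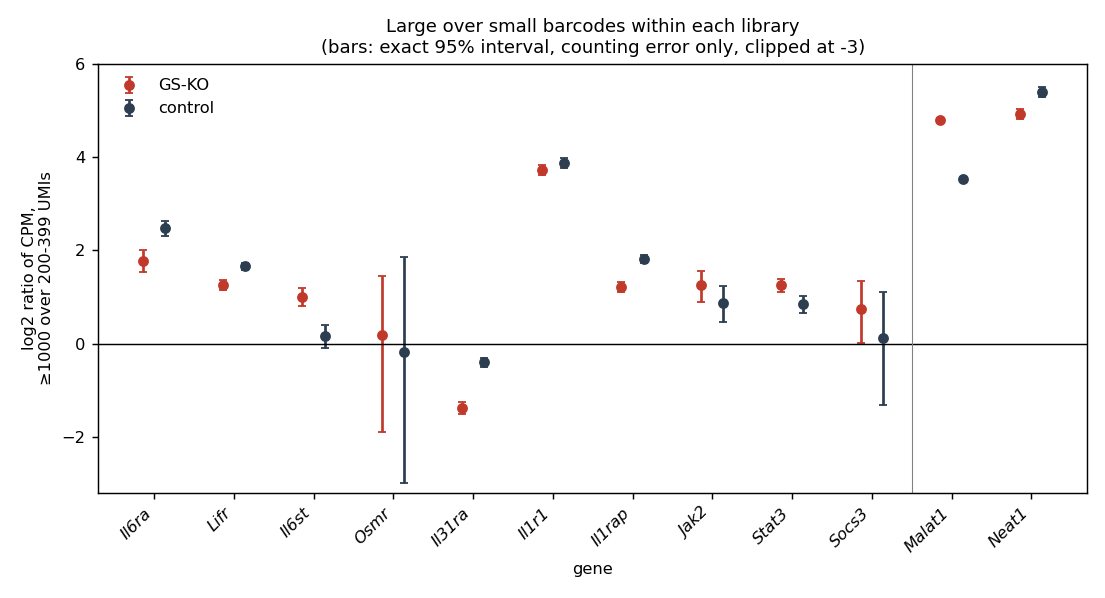
Log2 ratio of CPM in large over small barcodes within the GS-KO and the control library for the 10 genes and for the nuclear RNAs Malat1 and Neat1, with exact 95% intervals for counting error. Il1r1 lies at 3.72 (GS-KO) and 3.87 (control), nearest of the 10 to the nuclear RNAs, and Il31ra lies below 0 in both libraries.

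Since Malat1 differed between the libraries in large barcodes, the genes were also compared within a narrower range of Malat1 share, a comparison chosen after the data had been seen. Large barcodes with 2 to 4% of their UMIs from Malat1 numbered 891 in the GS-KO library and 720 in the control library. Malat1 itself still stood there at 31248 CPM in the GS-KO library and 26608 CPM in the control library, a log2 ratio of 0.23 (0.21 to 0.26), so the match was not complete. Il6ra stood there at 74.2 CPM in the GS-KO library and 220 CPM in the control library, a log2 ratio of -1.57 (-1.95 to -1.20). Lifr stood at 293 CPM in the GS-KO library and 852 CPM in the control library, a log2 ratio of -1.54 (-1.73 to -1.36). The Il6ra ratio lay within its interval over all large barcodes (-1.72 to -1.20). The Lifr ratio was larger in size than its interval over all large barcodes (-1.43 to -1.18). Il1rap had a log2 ratio of -0.998 (-1.18 to -0.82), Il6st of 0.82 (0.40 to 1.28) and Stat3 of 0.61 (0.30 to 0.94). Il31ra stood at 245 CPM in the GS-KO library and 268 CPM in the control library, and its log2 ratio of -0.13 had an interval that held 0 (-0.38 to 0.12). Socs3 was left with 12 UMIs in the GS-KO library and 3 in the control library, a log2 ratio of 1.53 with an interval that held 0 (-0.20 to 4.16). Il31ra was highest at the lowest Malat1 shares in both libraries: below 1% it stood at 673 CPM in the GS-KO library and 884 CPM in the control library, and at 4% or more at 131 CPM in the GS-KO library and 181 CPM in the control library.

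**Figure D4:**
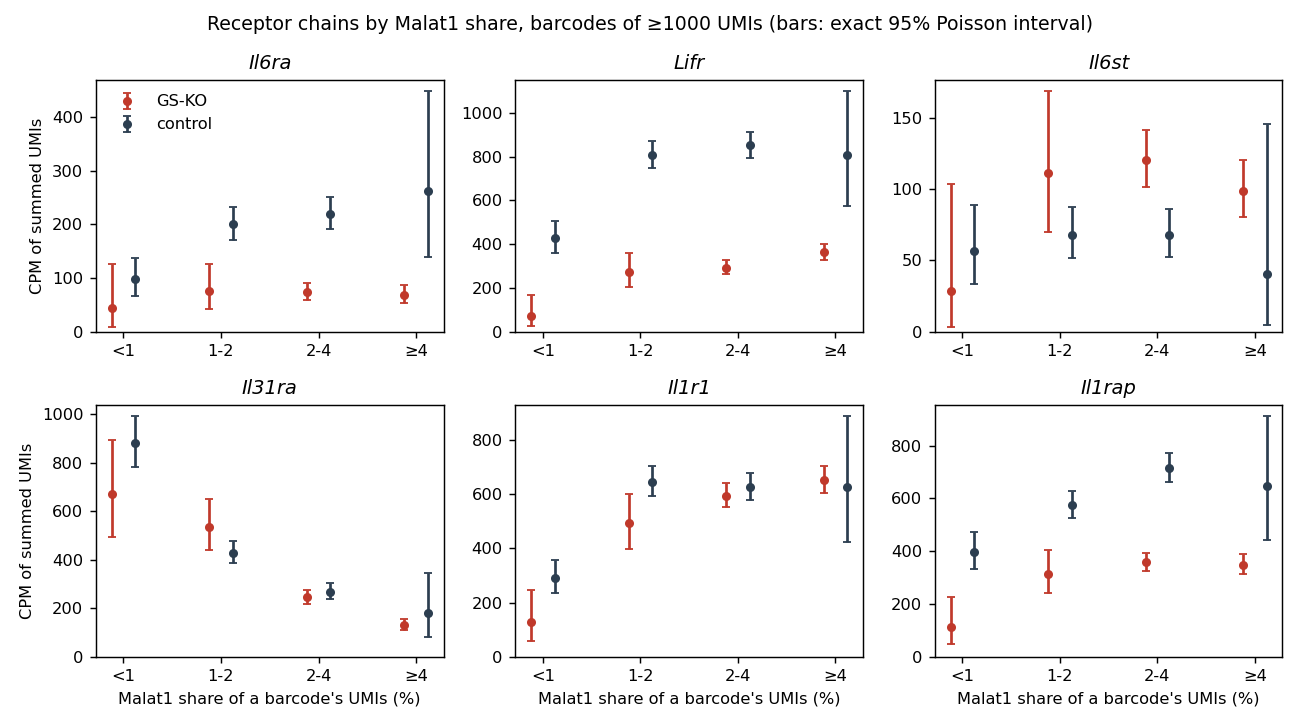
Level of 6 receptor chains (CPM, linear axis from 0) in large barcodes grouped by the share of their UMIs from Malat1, in the GS-KO and control libraries, with exact 95% Poisson intervals. At 2 to 4% Lifr is at 293 CPM (GS-KO) and 852 CPM (control) with intervals apart, while Il31ra is at 245 and 268 CPM in the same order with intervals that overlap; the control library has 35 barcodes at 4% or more.

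Markers of other cells were counted in the same barcodes. The 12 Kupffer cell markers, 11 of which were higher in large GS-KO barcodes and none of which was at 0, summed to 577 CPM in the GS-KO library and 96.2 CPM in the control library. In small barcodes they summed to 733 CPM in the GS-KO library and 124 CPM in the control library, with all 12 higher. The 7 neutrophil markers summed to 18.8 CPM in large GS-KO barcodes and 0.458 CPM in large control barcodes, where 6 of them were at 0. The 8 hepatocyte markers summed to 34846 CPM in large GS-KO barcodes and 46750 CPM in large control barcodes, and none was at 0. Endothelial markers (125 CPM in the GS-KO library and 131 CPM in the control library) and stellate cell markers (221 CPM in the GS-KO library and 237 CPM in the control library) lay closer together. The 8 B or plasma cell markers, 6 of which were higher in large GS-KO barcodes, summed to 187 CPM in the GS-KO library, where 1 of them (Pax5) was at 0, and 56.4 CPM in the control library, where 4 were at 0. The 8 cholangiocyte markers, 4 of which were higher in the GS-KO library, summed to 120 CPM in the GS-KO library, where 4 were at 0 (Krt19, Krt7, Epcam and Cftr), and 22.9 CPM in the control library, where 6 were at 0. The part of these markers in the levels of the 10 genes was not tested. Large barcodes with at least 3 UMIs from at least 2 Kupffer markers, and no such sum as large for another cell, numbered 126 in the GS-KO library and 24 in the control library. They still held 27562 CPM of hepatocyte markers in the GS-KO library and 39383 CPM in the control library.

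In the 1638 GS-KO and 1615 control large barcodes without a marker class of another cell, Il6ra and Lifr were again lower and Il6st higher in the GS-KO library. Il6ra stood at 74.6 CPM in the GS-KO library and 199 CPM in the control library, and Lifr at 313 CPM in the GS-KO library and 774 CPM in the control library. Il6st stood at 107 CPM in the GS-KO library and 64.5 CPM in the control library. Socs3 had 19 UMIs in these GS-KO barcodes and 5 in these control barcodes. Within the GS-KO library, Kupffer-marked barcodes held less Il1r1 than those without a class, 437 CPM against 613 CPM, a log2 ratio of -0.48 (-0.84 to -0.16). In the GS-KO library the same ratio had an interval that held 0 for the 9 other genes. In the control library the Il1r1 ratio had the other direction, 826 CPM against 581 CPM. Its log2 value of 0.53 had an interval that held 0 (-0.11 to 1.06). In the 24 Kupffer-marked control barcodes, 36 of the 46 Il31ra UMIs lay in 1 barcode.

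The NF-kB target genes Csf1, Birc3, Relb and Icam1 were counted in large barcodes without a marker class of another cell. Barcodes with at least 3 UMIs from at least 2 of them numbered 67 in the GS-KO library and 1 in the control library. Within the GS-KO library these 67 held 1 Il6ra UMI, or 10.4 CPM, against 77.6 CPM in the rest of the barcodes without a class, a log2 ratio of -2.31 (-8.20 to -0.39). Il1r1 stood at 345 CPM in them against 626 CPM, Il31ra at 136 CPM against 237 CPM, and Jak2 at 94.0 CPM (9 UMIs) against 34.2 CPM, a log2 ratio of 1.53 (0.27 to 2.46). Stat3 stood at 261 CPM against 179 CPM, a log2 ratio of 0.57 with an interval that held 0 (-0.10 to 1.13). Socs3 had 0 UMIs among their 95699, against 9.15 CPM in the rest. The interval of its log2 ratio reached up to 2.22, so a difference was not detectable at this depth.

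Other genes of the same pathways were compared as lists in large barcodes. Of the 11 IL-6 family ligand genes, none reached 20 UMIs in large barcodes, and together they held 19 UMIs in the GS-KO library and 10 in the control library. Il6 and Osm were at 0 in both. In small barcodes the ligand genes together held 290 UMIs in the GS-KO library and 139 in the control library, and in middle barcodes 95 in the GS-KO library and 30 in the control library. Most of those in small barcodes were of Ctf1, 169 in the GS-KO library and 116 in the control library. Its log2 ratio there was 0.36 (0.02 to 0.72). In large barcodes Ctf1 held 4 UMIs in the GS-KO library and 7 in the control library. Ebi3, a subunit shared by IL-27 and IL-35, held 59 UMIs in small GS-KO barcodes and 6 in small control barcodes, a log2 ratio of 3.02 (1.91 to 4.62), and 26 in middle GS-KO barcodes and 3 in middle control barcodes. Lif, the ligand of Lifr, held 18 UMIs in small GS-KO barcodes and 0 in small control barcodes. Il27, the other IL-27 subunit, chosen after its values were seen, held 20 UMIs in middle GS-KO barcodes and 0 in middle control barcodes. The Kupffer markers were higher in the same GS-KO barcodes, and their part in these ligand levels was not tested. Of 8 other receptor chains with enough UMIs in large barcodes, 3 were past 2-fold higher in the GS-KO library (Il10rb, Il22ra1 and Ifngr1), beside 12.8% of all genes. The count lower was 0, beside 5.6%, and the median log2 ratio was 0.55. Il10rb had 23 UMIs in the GS-KO library and 0 in the control library. Ifngr1, a chain of the interferon gamma receptor, had a log2 ratio of 1.03 (0.43 to 1.68), Ghr, the growth hormone receptor, of 0.53, the interferon receptor chain Ifnar1 of 0.56, and Egfr, the epidermal growth factor receptor, of -0.86 (-0.90 to -0.81). With a share of 5.6% lower over all genes, a count of 0 among these 8 does not set Il6ra and Lifr apart.

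On the IL-1 side, the ligand genes with enough UMIs were Il1rn, the receptor antagonist, and Il18. Il1rn held 29 UMIs in large GS-KO barcodes and 0 in large control barcodes. With 3 UMIs set as a floor for the control library, the level was 8.63-fold higher. This value leaves out counting error, and the exact interval of the log2 ratio starts at 2.72. In small barcodes Il1rn held 594 UMIs in the GS-KO library and 36 in the control library, and Il1b 518 in the GS-KO library and 44 in the control library. The Kupffer markers were higher in the same GS-KO barcodes, and their part in these ligand levels was not tested. Of 8 adaptor genes in large barcodes 3 were past 2-fold higher (Irak2, Irak3 and Tab2), beside 12.8% of all genes. The count lower was 0, beside 5.6%, and the median was 0.69. Irak2, a kinase recruited by the IL-1 receptor, held 502 UMIs in large GS-KO barcodes and 123 in large control barcodes, a log2 ratio of 1.86 (1.58 to 2.16). Tab2, an adaptor of the TAK1 kinase complex, held 449 UMIs in the GS-KO library and 118 in the control library, a log2 ratio of 1.76 (1.47 to 2.07). Map3k7, which encodes that kinase, had a log2 ratio of -0.32 (-0.71 to 0.07).

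Among other JAK and STAT genes, Stat5b, which carries growth hormone signals in liver, had a log2 ratio of 1.24 (0.99 to 1.5). Jak1, the main kinase of IL-6 signalling, had a log2 ratio of -0.26 (-0.44 to -0.08). Of 17 negative regulators other than Socs3 in large barcodes, 0 were past 2-fold higher, beside 12.8% of all genes, with a median of -0.22. The count lower was 1, beside 5.6% (Socs2, at 8 UMIs in the GS-KO library and 86 in the control library). The 4 regulators with most UMIs were Pias1, Cblb, Pias2 and Ptpn2. Pias2 had a log2 ratio of -0.66 (-0.93 to -0.40). The interval held 0 for Pias1 at -0.03 (-0.27 to 0.22), Cblb at -0.02 (-0.29 to 0.25) and Ptpn2 at -0.0022 (-0.29 to 0.29). Socs1 had under 20 UMIs in middle and large barcodes. In small barcodes 1 of 18 was past 2-fold higher, beside 13.2% (Socs1, at 51 UMIs in the GS-KO library and 9 in the control library). In middle barcodes 3 of 17 were higher, beside 15.6% (Pias3, Ptpn1 and Ptpn6). The 2 genes Socs2 and Cish were lower at both sizes, beside 4.25% in small and 3.7% in middle barcodes. In large barcodes, of 24 STAT3 target genes outside the 10, 10 were past 2-fold higher and 3 lower (Pim3, Hamp and Nnmt), with a median of 0.68. Haptoglobin, Hp, stood at 4893 CPM in the GS-KO library and 899 CPM in the control library, a log2 ratio of 2.44 (2.38 to 2.51). The fibrinogen genes Fgb and Fga had log2 ratios of 0.51 and 0.61, and Hamp, which encodes the iron hormone hepcidin and is also induced by IL-6, of -1.11 (-1.17 to -1.05). Il10rb, Il22ra1, Irak3, Socs1, Socs2, Cish, Pias3, Ptpn1, Ptpn6, Pim3 and Nnmt are named because they make up a count of genes past 2-fold, which was known when they were named. Over all genes in large barcodes 12.8% were past 2-fold higher and 5.6% lower, as above.

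**Figure D5:**
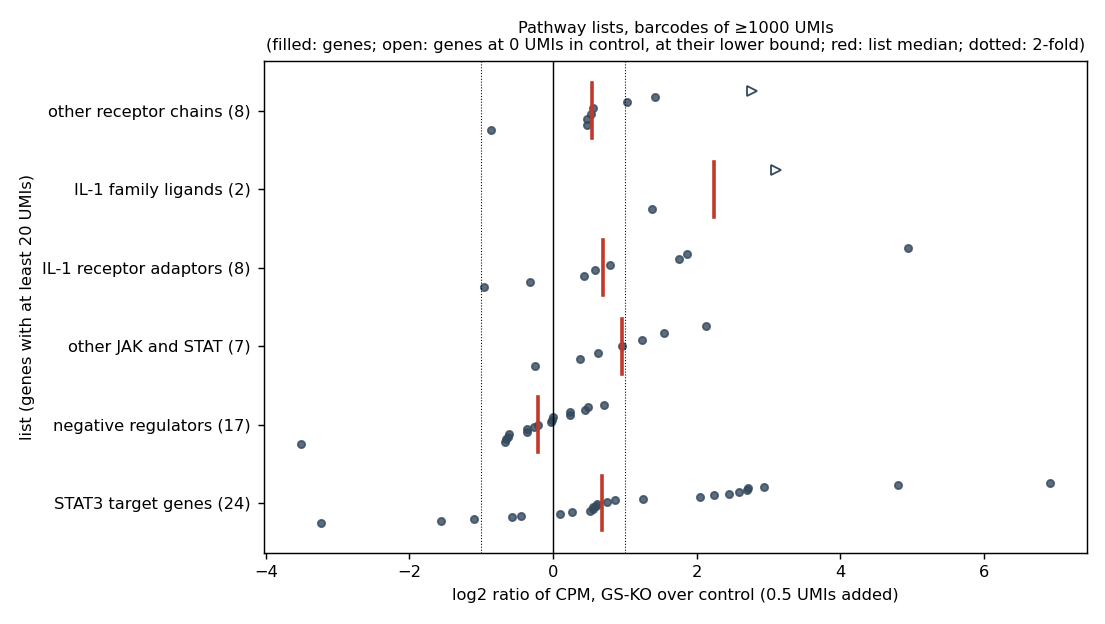
Log2 ratio of CPM, GS-KO over control, in large barcodes for the genes of 6 pathway lists with at least 20 UMIs (number in brackets), with the list median as a red bar and dotted lines at 2-fold. The median of the negative regulators is -0.22 and that of the STAT3 target genes 0.68; Il10rb and Il1rn, at 0 UMIs in the control library, are drawn as open triangles at their lower bounds.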

How the data were processed

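UMI counts were measured in 1 GS-KO and 1 control liver library. The authors deposited whole-number counts per gene and barcode, not normalized, which Cell Ranger made (version 8.0.0, per the file headers). The build was mm10, per the submitters' processing notes. The sources used here do not say how barcodes were selected. The GS-KO matrix starts at 123 UMIs per barcode and the control matrix at 119.

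Counts were summed per band of barcode size and scaled to CPM, with exact 95% Poisson intervals. Ratios are GS-KO over control on a log2 scale with 0.5 UMIs added to each sum and an exact conditional interval. Counts past 2-fold covered genes with 20 or more UMIs over the 2 libraries. The genes and lists were chosen with earlier results of these data known. All 10 genes were named, and from each list the up to 4 genes with most UMIs in large barcodes. No cells were clustered, no doublet caller was run and no mitochondrial limit was set. The ratio code was tested on simulated data. Positions come from GENCODE M21, promoters from RefSeq. Intervals were computed with scipy 1.17.1 and sums with numpy 2.4.6 and pandas 2.3.3 under Python 3.11.15, and figures drawn with matplotlib 3.10.9. Protein sequences were not analysed here. Some genes that the naming rule covers are not reported here.

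Alternatives changed the scaling, the added count, the UMI minimum, the fold, the barcodes used, their mitochondrial share, free RNA and marker classes. Matching on the Malat1 share and leaving Il31ra out of the chain sum were added after seeing the data.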

Additional observations from a re-analysis of the deposited data

How the results depend on the processing

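Over the Socs3, chain sum, odds ratio and 2-fold count results, 20 of 29 alternatives in small, 20 of 25 in middle and 35 of 45 in large barcodes were rated unchanged. A ratio was rated unchanged if it stayed within the interval of the reported value. The counts have no interval. In large barcodes the count of 3 (1 higher, 2 lower) was rated unchanged at 4 with free RNA taken off or without a UMI minimum. The same holds for 2 at a Malat1 share of 2 to 4%, and for 0 higher and 3 lower at 1500 UMIs or more. For the single genes 46 of 63, 48 of 54 and 83 of 99 alternatives were rated unchanged. The log2 ratio of the summed chains in small barcodes was -0.15 without mitochondrial and ribosomal protein genes in the total, -0.070 when centred on the median ratio, -0.11 at no more than 10% mitochondrial UMIs, and -0.47 without Il31ra. In barcodes of at least 400 and under 500 UMIs it was reversed at 0.14, and Il6st was reversed there at 0.32. The number of genes past 2-fold in small barcodes was 0 with 5 UMIs added, 4 at 1.5-fold and 3 in barcodes of at least 400 and under 500 UMIs, all higher (Osmr at 2.71, Socs3 at 1.11 and Il1r1 at 1.03). In that band Malat1 stood at 6075 CPM in the GS-KO library and 2212 CPM in the control library, and the cause was not tested. In middle barcodes the chain sum was -0.37 when centred and -0.34 without Il31ra, and 3 genes were past 1.5-fold. In large barcodes Socs3 was 0.10 at 1500 UMIs or more and reversed to -0.25 at 2000 UMIs or more, where both libraries held under 3 Socs3 UMIs. The log2 odds ratio of Socs3 to the chains was 0.84 and 0.50 at those limits. The chain sum in large barcodes was -0.74 and -0.75 at those limits and -0.80 with free RNA taken off, and 6 genes were past 1.5-fold. With all barcodes of a matrix summed, the chain sum was -0.20, 1 gene was past 2-fold, Il6st was reversed to -0.0039 and Il31ra to 0.045 relative to middle and large barcodes.

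No paired analysis was possible because each group holds 1 library. With 1 mouse a group, the deletion, the virus, the mouse, the digestion and the library cannot be told apart. Depth limits Socs3 and Osmr most, and a difference in Osmr in large barcodes was not detectable at this depth.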

Other observations

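The genes were also compared along the axis from portal to central vein, among large barcodes without a marker class of another cell, ranked within each library by pericentral against periportal marker UMIs. The 546 GS-KO and 538 control barcodes at each end were summed. In the GS-KO library the pericentral end held 370 CPM of Lifr against 281 CPM at the periportal end, a log2 ratio of 0.40 (0.13 to 0.67). In the control library the pericentral end held 841 CPM of Lifr against 666 CPM at the periportal end, a log2 ratio of 0.34 (0.16 to 0.52). Lifr was thus higher at the pericentral end in both libraries. The ends were ranked within each library and do not match between the libraries. Cyp2e1, a pericentral marker, stood at 3932 CPM at the GS-KO pericentral end and 3798 CPM at the control periportal end. Malat1 stood at 42902 CPM at the pericentral and 37537 CPM at the periportal end in the GS-KO library. In the control library it stood at 19170 and 20529 CPM, and its part was not tested. Il1r1 had a log2 ratio of 0.51 (0.31 to 0.70) between the ends in the GS-KO library and of 0.13 (-0.07 to 0.33) in the control library, and the difference between the libraries was not tested. For the other 8 genes the interval held 0 in both libraries wherever the gene was detected. The pericentral markers themselves summed to 3413 CPM in large GS-KO barcodes and 7333 CPM in large control barcodes.

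Over the 6 sums (2 libraries by 3 barcode sizes), 7808 genes had at least 20 UMIs in each and could be compared in pattern. The genes whose centred log2 levels lay nearest to those of Lifr were Ttc39b, Npr2 and Aass, at root mean square distances of 0.071, 0.085 and 0.095. Near to Il6ra lay Ank and 1110059E24Rik, both at 0.12. Socs3 fell to 7 UMIs in its lowest sum and was not compared.

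Socs2 and Cish, feedback inhibitors induced by STAT5, differed from Socs3 in small barcodes. Both were chosen after their values were seen. Socs2 held 232 UMIs in small GS-KO barcodes and 2668 in small control barcodes, a log2 ratio of -3.70 (-3.90 to -3.51). Cish held 97 UMIs in small GS-KO barcodes and 610 in small control barcodes, a log2 ratio of -2.82 (-3.15 to -2.52). Gm20319, annotated on the other strand across Il1rap, held 738 UMIs in large GS-KO barcodes and 472 in large control barcodes, whereas Il1rap held 841 in the GS-KO library and 1337 in the control library.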
